A study of Monodelphis domestica with 6 samples.

Results

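The amino acid transporter families SLC1, SLC3, SLC6, SLC7 and SLC38 were compared between the skin fibroblasts and the induced pluripotent stem cells of an opossum, the marsupial Monodelphis domestica. The families were chosen with earlier results of these data known. Their members were then taken by name alone, as every gene whose symbol was SLC1A, SLC3A, SLC6A, SLC7A or SLC38A followed by a number. There were 51 of them among the 35665 genes in the deposited tables, of which 7 belonged to SLC1, 2 to SLC3, 19 to SLC6, 13 to SLC7 and 10 to SLC38.

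The study reprogrammed neonatal skin fibroblasts (neoSFs) of 2 inbred, wild-type opossum strains, FD2M1 and LSD1, into opossum iPSCs (monoiPSCs). The neoSFs were primary cultures from the skin of 10-day-old female pups, kept in a medium with serum and glutamine. The monoiPSCs were made by nucleofection of episomal plasmids with human cMYC, KLF4, LIN28, NANOG, OCT4 and SOX2, of a plasmid with a dominant negative mouse p53 and of one with EBNA1, and were kept without feeders in a serum-free medium with stabilised glutamine, non-essential amino acids, 2-mercaptoethanol, LIF and bFGF. RNA-seq covered 2 neoSF libraries, 1 of each strain, and 4 monoiPSC libraries, which were 1 line of each strain at passage 15 (P15) and passage 25 (P25). Strain and line therefore cannot be told apart, and the 4 monoiPSC libraries came from 2 lines, so p-values measure the spread between these libraries only. Medium and sequencing also changed together with cell type, since neoSFs were read single-end in-house and monoiPSCs paired-end by a service, and their effects on a transporter cannot be told apart from that of the cell type.

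Amino acid transporters set which amino acids a cell can take up, exchange or release. SLC1 proteins carry glutamate or small neutral amino acids with sodium, SLC6 proteins carry neurotransmitters, osmolytes and neutral amino acids with sodium and chloride, SLC38 proteins carry glutamine and other neutral amino acids, and SLC7 proteins either carry cationic amino acids alone or act as light chains that reach the membrane only when joined to an SLC3 heavy chain. Proliferating cells and pluripotent stem cells are known for a high demand for glutamine and for essential amino acids such as leucine, and leucine and arginine inside the cell and the lysosome signal to the growth regulator MTORC1.

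The total count was 14278794 and 16982978 in the neoSF libraries and 28684754 to 35564261 in the monoiPSC libraries, and the members took 0.223% to 0.470% of a library. Levels are given as the normalized read count (NRC), the deposited DESeq-normalized value on a linear scale, which can be compared between libraries but not between genes, as it is not corrected for length. A count of 3 equals an NRC of 4.75 to 5.85 in neoSFs and of 1.55 to 1.88 in monoiPSCs. The labels were checked on marker genes. The summed NRC of 13 fibroblast markers was 1722812 and 1827520 in neoSFs against 8436 to 14964 in monoiPSCs, and 10 pluripotency markers summed to 241 and 146 in neoSFs against 11802 to 16981 in monoiPSCs. Some markers of other cell types were also high in monoiPSCs. DCT, a melanocyte gene, reached 4372 to 15279 against 1.95 and 1.58 in neoSFs, but it was the 1 of 5 melanocyte markers above both neoSF libraries in every monoiPSC library. FABP7, a neural progenitor gene, reached 7748 to 12579 against 7.17 and 2.32, and it was 1 of 3 such genes among 6 neural progenitor markers. The summed NRC was 257 and 407 in neoSFs against 4604 to 15571 in monoiPSCs for the melanocyte list, and 6172 and 24801 against 14386 to 20178 for the neural progenitor list. In neoSFs nearly all of the neural progenitor sum came from NES, at 6143 and 24777. NES was at 4225 to 10431 in monoiPSCs. The part of such cells in the transporter levels was not tested. In a bulk library, fewer cells that use a transporter and less of its RNA per cell cannot be told apart.

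Of the 51 members, 26 were expressed in neoSFs and 31 in monoiPSCs, where expressed means an NRC of at least 20 in every library of the group. Both cell types shared 25 of these. SLC3A1, SLC6A4, SLC6A12, SLC6A17, SLC7A3 and SLC7A9 passed in monoiPSCs alone, and SLC6A13 in neoSFs alone. The LSD1 neoSFs missed the threshold narrowly for SLC3A1, at an NRC of 19.6. The 32 members expressed in at least one cell type were tested, and the other 19 were too low. A member that passed through one cell type alone was selected for being high there, so the counts below cover the 32 tested members and not the families as a whole.

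To find differentially expressed (DE) members, monoiPSCs were set against neoSFs in edgeR, and a gene was DE if it changed at least 2-fold with a p, adjusted after Benjamini and Hochberg, of 0.05 or less. Of the 32 tested members, 19 were DE, or 59.4%, beside 45.9% of the 13072 genes tested. The share of higher members was 31.2% (10 members) beside 24.3% of all tested genes, and the share of lower members 28.1% (9 members) beside 21.6%. The median log2 fold change was 0.14 over the members and 0.08 over all tested genes, and the median size of the change, whatever its sign, was 1.51 and 0.95. Without the LSD1 neoSF library 14 members were DE, or 43.8%, beside 43.4% of all genes. The groups did not overlap for 23 of the 32 members, a share of 71.9% beside 73.2% of all tested genes. The families differed in their counts. In SLC38, 4 of 7 tested members fell and 2 rose, in SLC7, 4 of 10 rose and 1 fell, and in SLC6, 3 of 9 rose and 3 fell. In SLC1, 1 of 4 fell and none rose, and in SLC3, 1 of 2 rose.

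**Figure D1:**
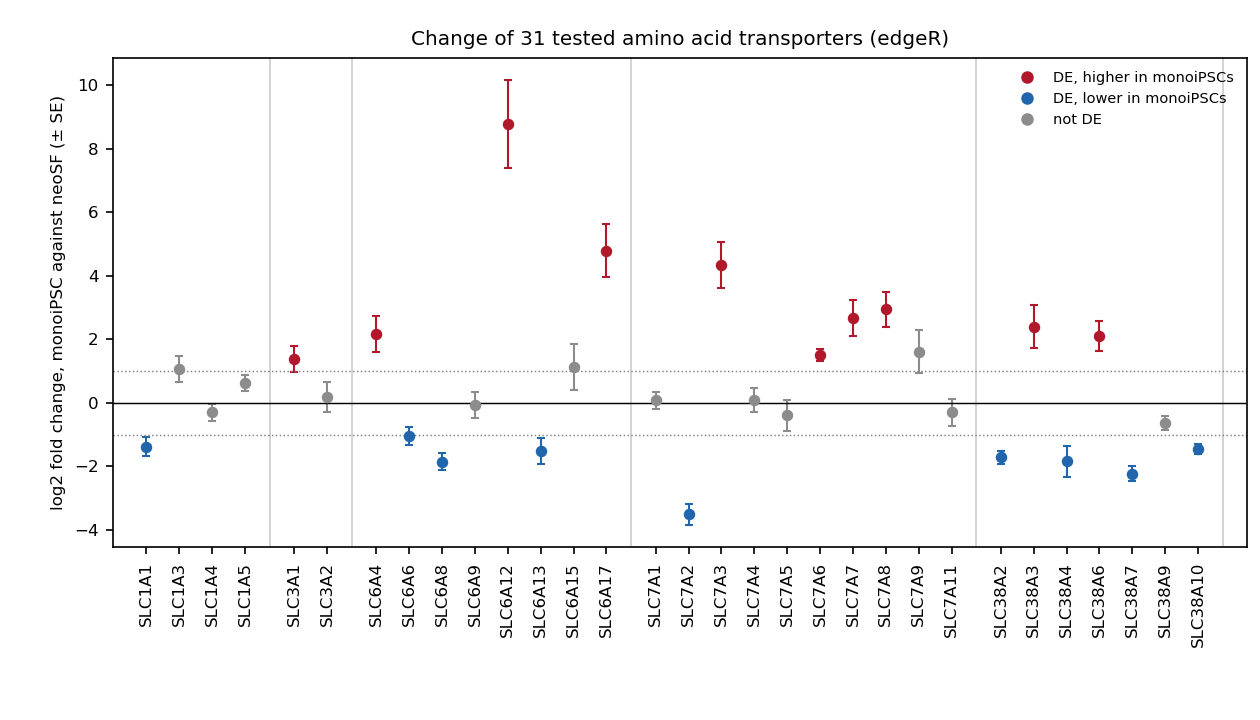
Log2 fold change of monoiPSCs against neoSFs (y axis) for 31 tested members, grouped by family along the x axis. Points are edgeR estimates from 2 neoSF and 4 monoiPSC libraries, bars are ± 1 standard error, red and blue points are DE and grey points are not, and dotted lines mark a 2-fold change. SLC6A12 had the highest estimate, 8.78, and SLC7A2 the lowest, -3.51.

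Values by library are given below in a fixed order, FD2M1 and LSD1 for neoSFs, and FD2M1 P15, LSD1 P15, FD2M1 P25 and LSD1 P25 for monoiPSCs. The adjusted p-values come from edgeR (quasi-likelihood test, Benjamini-Hochberg adjustment over all 13072 genes), and errors of log2 fold changes are standard errors.

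Among the sodium-coupled neutral transporters of the SLC38 family, SLC38A2, SLC38A4, SLC38A7 and SLC38A10 were lower and SLC38A3 and SLC38A6 higher in monoiPSCs. SLC38A2 (gene 100023252, chromosome 8 of MonDom5), a system A transporter that brings glutamine and alanine into the cell, had an NRC of 25849 and 16842 in neoSFs and of 5980.5, 6827, 6520.1 and 5019.9 in monoiPSCs. All 4 monoiPSC libraries lay far below both neoSF libraries and close to one another. The log2 fold change was -1.71 ± 0.21 (adjusted p = 0.000421), and the mean was 21345 ± 6369 in neoSFs (SD, n = 2) and 6087 ± 793 in monoiPSCs (SD, n = 4). SLC38A2 alone held 66.6% to 81.8% of the family's summed NRC in each library, without correction for length. That sum was 27466 ± 5869 in neoSFs (SD, n = 2) and 8609 ± 1056 in monoiPSCs (SD, n = 4), a ratio of 0.313. On plain CPM values, which scale by the total count in place of the DESeq factors, the ratio was 0.483.

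SLC38A7 (gene 100011749, chromosome 1), which exports glutamine from the lysosome, fell by 2.23 on the log2 scale (standard error 0.25, adjusted p = 0.000259). Its NRC was 1749 and 2650.0 in neoSFs and 464, 561, 398 and 338 in monoiPSCs. The lower of the neoSF libraries was thus still far above the highest monoiPSC library. SLC38A10 (gene 100030519, chromosome 2) showed a like separation, with an NRC of 3349.7 and 2969 in neoSFs and of 919.8, 1258, 1058 and 1111 in monoiPSCs (log2 fold change -1.44 ± 0.16, adjusted p = 0.00023). These 3 members were DE in all 12 alternative settings, which were other scalings, tools and filters and the omission of each library. SLC38A9, a lysosomal transporter through which arginine signals to MTORC1, had a mean of 445 ± 63.8 in neoSFs (SD, n = 2) and 267 ± 37.4 in monoiPSCs (SD, n = 4). The groups did not overlap, but its log2 fold change of -0.64 ± 0.22 (adjusted p = 0.0368) was under 2-fold, so it was not DE.

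The remaining tested SLC38 members differed in direction. SLC38A4 (gene 100018781, chromosome 8), a system A transporter that also accepts cationic amino acids, had an NRC of 95.7 and 205 in neoSFs and of 25.8, 29.4, 66.2 and 36.1 in monoiPSCs. Its log2 fold change was -1.84 ± 0.49 (adjusted p = 0.0132), and without the LSD1 neoSF library it was -1.18 (adjusted p = 0.136) and no longer DE. In the other direction went SLC38A3 (gene 100028460, chromosome 6), a system N transporter for glutamine, histidine and asparagine. It had an NRC of 101 and 54.3 in neoSFs and of 116, 428, 613 and 366 in monoiPSCs. FD2M1 P15 stood just above the higher neoSF library, while the other 3 monoiPSC libraries were well above it. The log2 fold change of 2.40 ± 0.68 (adjusted p = 0.0171) became 2.01 (adjusted p = 0.0975) without the LSD1 neoSF library. SLC38A6 (gene 100027159, chromosome 1) had an NRC of 47.8 and 85.8 in neoSFs and of 133, 315, 299 and 332 in monoiPSCs, a log2 fold change of 2.11 ± 0.48 (adjusted p = 0.00676). Here too the FD2M1 P15 library was the lowest of the 4 monoiPSC libraries.

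**Figure D2:**
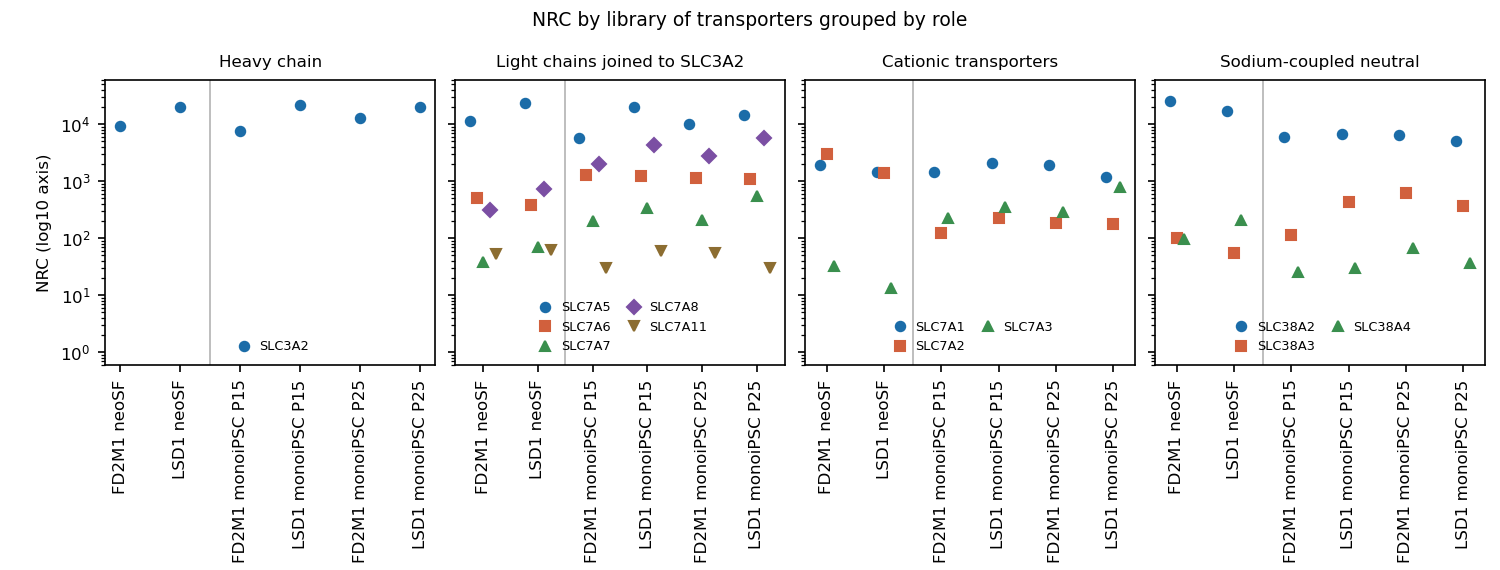
NRC on a log10 axis (y axis) in each of the 6 libraries (x axis) for the heavy chain SLC3A2, its light chains, the cationic transporters and 3 sodium-coupled neutral transporters. Each marker is 1 library, and the grey line parts neoSFs from monoiPSCs. SLC3A2 and SLC7A5 overlapped between the cell types, SLC7A8 rose from 307 and 717 to 2020.3 and more, and SLC7A2 and SLC7A3 moved in opposite directions.

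The SLC3A2 heavy chain, also called CD98, brings several SLC7 light chains to the membrane, and its level did not differ detectably between the cell types. SLC3A2 (gene 100013019, chromosome 5) had an NRC of 9125 and 20217 in neoSFs and of 7537, 22017, 12984 and 19823 in monoiPSCs. The FD2M1 library was the lower one in neoSFs and at both passages, and the cell types overlapped over most of their range. The log2 fold change was 0.18 ± 0.48 (adjusted p = 0.758). SLC7A5 (gene 100025636, chromosome 1), the LAT1 light chain that brings leucine and other large neutral amino acids into the cell in exchange for glutamine, had an NRC of 11463 and 23405 in neoSFs and of 5753, 19854, 9899 and 14376 in monoiPSCs. As for SLC3A2, LSD1 was above FD2M1 in neoSFs and at both passages, and the cell types overlapped. The log2 fold change was -0.39 ± 0.48 (adjusted p = 0.505). Both genes changed sign when single libraries were left out, so no direction is given for either.

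The other light chains of SLC3A2 were not uniform. SLC7A8 (gene 100030503, chromosome 1), the LAT2 light chain for neutral amino acids, had an NRC of 307 and 717 in neoSFs and of 2020.3, 4365, 2793 and 5650.3 in monoiPSCs. SLC7A7 (gene 100024137, chromosome 1), the y+LAT1 light chain that releases cationic amino acids in exchange for neutral ones and sodium, had 37.7 and 69.2 in neoSFs and 198, 333, 208 and 546 in monoiPSCs. Both rose in every monoiPSC library, with log2 fold changes of 2.94 ± 0.55 (adjusted p = 0.00263) and 2.67 ± 0.56 (adjusted p = 0.00471), and LSD1 was above FD2M1 at each stage. SLC7A6 (gene 100022540, chromosome 1), the y+LAT2 light chain of the same exchange, had 515 and 376 in neoSFs and 1269, 1221, 1127 and 1109 in monoiPSCs (log2 fold change 1.51 ± 0.19, adjusted p = 0.000421). The 4 monoiPSC libraries differed little from one another. SLC7A6 and SLC7A6OS, named for the opposite strand, are neighbours in RefSeq's order of genes in another assembly, mMonDom1.pri. Whether the counting used strand is unclear, so reads of the 2 genes may be mixed. The NRC of SLC7A6OS itself was 480.2 and 392 in neoSFs and 502 to 645 in monoiPSCs. SLC7A8, SLC7A7 and SLC7A6 were DE in all 12 alternative settings.

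SLC7A11 (gene 100027770, chromosome 5), the xCT light chain that exchanges glutamate for cystine and so feeds glutathione synthesis, had an NRC of 53.3 and 62.2 in neoSFs and of 30.4, 59.5, 54.0 and 30.5 in monoiPSCs, and it was not DE (log2 fold change -0.30 ± 0.43, adjusted p = 0.559). SLC7A10 (gene 100012622, chromosome 1), the Asc-1 light chain for small neutral amino acids and D-serine, had no count in either neoSF library and an NRC of 11.2, 18.2, 22.6 and 13.4 in monoiPSCs. It was too low to be tested. Against a floor of 3 counts per neoSF library it was at least 3.01-fold higher in monoiPSCs on TMM-scaled counts. The second heavy chain, SLC3A1, and its light chain SLC7A9 form the transporter of cystine and cationic amino acids known from kidney and gut, and both were low in reads. SLC3A1 had a mean of 20.3 ± 1.12 in neoSFs (SD, n = 2) and 49.5 ± 11.0 in monoiPSCs (SD, n = 4) (log2 fold change 1.39 ± 0.41, adjusted p = 0.0199), and it was not DE without either one of the neoSF libraries (adjusted p = 0.0692 and 0.0953). SLC7A9 had 19.5 and 5.27 in neoSFs and 20.1 to 47.1 in monoiPSCs and was not DE (adjusted p = 0.0715). It became DE without the FD2M1 neoSF library (log2 fold change 2.90, adjusted p = 0.0335).

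SLC7A1, SLC7A2 and SLC7A3 carry cationic amino acids such as arginine and lysine without a heavy chain. Of these, SLC7A2 fell, SLC7A3 rose and SLC7A1 did not differ detectably. SLC7A2 (gene 100021629, chromosome 5), known as CAT2, had an NRC of 2964 and 1381 in neoSFs and of 123, 229, 181 and 180.3 in monoiPSCs. Its log2 fold change of -3.51 ± 0.33 (adjusted p = 0.000135) was the lowest of the 32 members. SLC7A3 (gene 100013702, chromosome X), known as CAT3, had 31.9 and 13.5 in neoSFs and 222, 349, 286 and 784 in monoiPSCs, a log2 fold change of 4.34 ± 0.73 (adjusted p = 0.00169). Neither gene overlapped between the cell types, and both were DE in all 12 alternative settings. SLC7A1 (gene 100025569, chromosome 4), the widespread CAT1, had a mean of 1700.2 ± 344 in neoSFs (SD, n = 2) and 1675 ± 437 in monoiPSCs (SD, n = 4). Its log2 fold change was 0.08 ± 0.26 (adjusted p = 0.817), and its sign turned with limma. Of the SLC7 members not yet named, SLC7A4 had 101 and 92.9 in neoSFs and 83.7, 77.9, 76.6 and 150.4 in monoiPSCs. Apart from LSD1 P25 the monoiPSC libraries lay just below the neoSFs (log2 fold change 0.09 ± 0.39, adjusted p = 0.848). SLC7A13 had no count in any library, and SLC7A14 had at most 4 counts in any library.

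In the SLC6 family, the transporters of taurine and creatine were lower in monoiPSCs. SLC6A8 (gene 100014962, chromosome X), the creatine transporter, had an NRC of 1627 and 1368 in neoSFs and of 275, 364, 367 and 548 in monoiPSCs (log2 fold change -1.85 ± 0.26, adjusted p = 0.000732). It was DE in all 12 alternative settings. SLC6A6 (gene 100016173, chromosome 6), the taurine transporter, had 5564 and 2801 in neoSFs and 2373, 1665, 1559 and 1957 in monoiPSCs. The groups were separate, but the gap between the LSD1 neoSFs and FD2M1 P15 was small. Its log2 fold change of -1.05 ± 0.28 (adjusted p = 0.0142) was just past the 2-fold threshold. It was -0.48 (adjusted p = 0.160) without the FD2M1 neoSF library, and it was also under 2-fold without LSD1 P15 or FD2M1 P25 and with strain as a block, at -0.99, -0.97 and -0.99. The call for SLC6A6 therefore rests on single libraries.

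The transporters of GABA and betaine went in different directions. SLC6A12 (gene 100016965, chromosome 8), which carries betaine and GABA, had 0 counts in FD2M1 and, after rounding, 1 count in LSD1 neoSFs and an NRC of 119, 387, 260.1 and 824 in monoiPSCs. LSD1 was above FD2M1 at each passage, and P25 above P15 in each line. With 1 count in neoSFs against 2959 in monoiPSCs, the ratio on TMM-scaled counts was 501, with an exact 95% interval of 89.8 to 19792 for counting error only (adjusted p = 0.00128). SLC6A13 (gene 100017001, chromosome 8), its neighbour in the same order and a GABA and taurine transporter, had a mean of 70.2 ± 12.3 in neoSFs (SD, n = 2) and 22.7 ± 7.15 in monoiPSCs (SD, n = 4) (log2 fold change -1.52 ± 0.41, adjusted p = 0.0134). It lost its call without the LSD1 neoSF library (log2 fold change -1.31, adjusted p = 0.0877).

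A pair of transporters best known from nerve cells were low in reads and higher in monoiPSCs. SLC6A17 (gene 100030204, chromosome 2), a neutral amino acid transporter of synaptic vesicles, had 4 counts in both neoSF libraries together and 676 in monoiPSCs, a ratio of 28.6 with an exact 95% counting interval of 11.1 to 105 (adjusted p = 0.00194). SLC6A4, the serotonin transporter, had a mean NRC of 20.3 ± 10.8 in neoSFs (SD, n = 2) and 82.7 ± 32.7 in monoiPSCs (SD, n = 4). Its log2 fold change of 2.16 ± 0.57 (adjusted p = 0.0123) was 1.70 (adjusted p = 0.0776) without the LSD1 neoSF library. SLC6A9, a glycine transporter, did not differ detectably between the cell types. Its mean was 2222 ± 911 in neoSFs (SD, n = 2) and 1981 ± 858 in monoiPSCs (SD, n = 4). SLC6A15, a transporter of branched-chain amino acids and proline, had 151 and 24.3 in neoSFs and 181, 117, 295 and 115 in monoiPSCs, so that the FD2M1 neoSFs lay within the monoiPSC range and the LSD1 neoSFs below it. It was not DE (adjusted p = 0.210), but it was with strain as a block (log2 fold change 1.43, adjusted p = 0.0345) and without the FD2M1 neoSF library (2.98, adjusted p = 0.0161).

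In the SLC1 family, the glutamate transporter SLC1A1 (gene 100014691, chromosome 6), known as EAAC1 or EAAT3, was the only DE member of the 4 tested. Its NRC was 213 and 259 in neoSFs and 60.0, 91.9, 99.2 and 88.6 in monoiPSCs (log2 fold change -1.38 ± 0.29, adjusted p = 0.00495), and it was DE in all 12 alternative settings. SLC1A3, the glutamate transporter of glia known as GLAST, had 708 and 879.7 in neoSFs and 942, 2467, 1087 and 1724 in monoiPSCs. The groups were separate by a small margin, and the log2 fold change of 1.06 ± 0.40 just missed the threshold (adjusted p = 0.0513). It was past the threshold in 4 of 12 alternative settings, among them DESeq2 (adjusted p = 0.0210). The exchangers of alanine, serine, cysteine and, for SLC1A5, glutamine overlapped between the cell types. SLC1A4 had a mean of 5669 ± 1012 in neoSFs (SD, n = 2) and 4326 ± 1151 in monoiPSCs (SD, n = 4) (log2 fold change -0.30 ± 0.26, adjusted p = 0.355). SLC1A5 had 4858 and 2569 in neoSFs and 4831, 6219, 5382 and 4941 in monoiPSCs (log2 fold change 0.62 ± 0.26, adjusted p = 0.0729). The FD2M1 neoSFs lay within the range of the monoiPSCs and the LSD1 neoSFs below it, and without the FD2M1 neoSF library SLC1A5 was DE (log2 fold change 1.15, adjusted p = 0.00690).

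**Figure D3:**
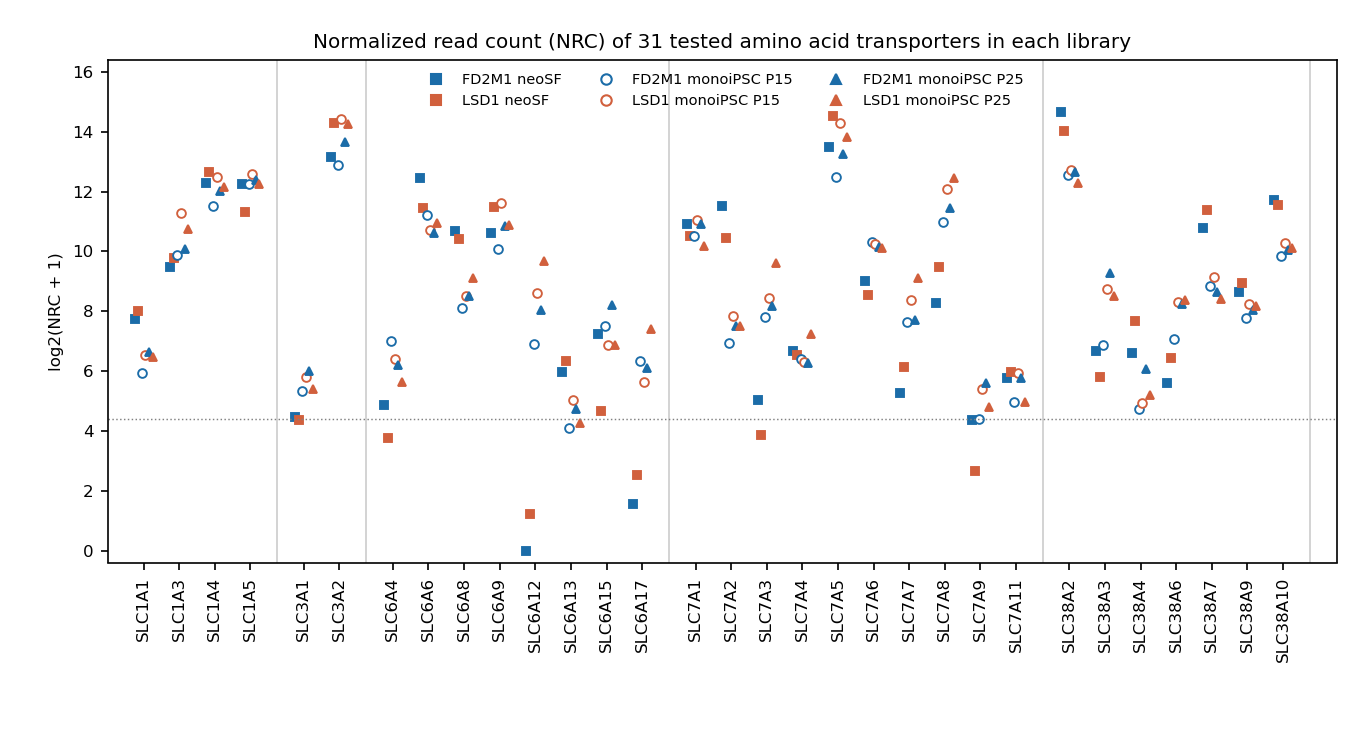
Log2 of the NRC plus 1 (y axis) in each library for 31 tested members (x axis, grouped by family). Colour marks the strain, squares are neoSFs, open circles monoiPSCs at P15 and triangles monoiPSCs at P25, and the dotted line is the expression threshold of an NRC of 20. SLC38A2, SLC38A7, SLC38A10 and SLC7A2 show both neoSF squares above all monoiPSC symbols, and SLC7A6 and SLC7A8 show them below.

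The 19 members that were too low for the test had at most an NRC of 38.01 in any library. SLC1A7, SLC6A5, SLC6A7, SLC6A14, SLC6A18, SLC6A19, SLC7A13, SLC7A14 and SLC38A8 stayed under 10 in every library, and SLC6A5, SLC6A18 and SLC7A13 had at most 3 counts in any library. SLC1A6, a glutamate transporter of cerebellar neurons, reached 27.8 in the LSD1 neoSFs and at most 2.06 elsewhere. SLC38A5, a system N transporter, was near the threshold in both cell types, with 15.2 and 14.1 in neoSFs and 24.5, 27.2, 16.5 and 38.01 in monoiPSCs. SLC1A2, the main glutamate transporter of astrocytes, had 0 and 1.58 in neoSFs and 9.99 to 27.3 in monoiPSCs. SLC6A11, a GABA transporter, was listed at 0 in both neoSF libraries and at 8.94 to 22.2 in monoiPSCs, and SLC6A20, an imino acid transporter, had 3.90 and 1.58 against 8.41 to 19.1. The noradrenaline and dopamine transporters SLC6A2 and SLC6A3, and SLC6A16 and SLC38A11, had at most 20.9 in any library.

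The design also allowed P25 to be set against P15 within the 2 lines. The 31 members expressed in all 4 monoiPSC libraries were fitted in edgeR with strain as a covariate. The fit called 0 members and 0 of 12252 genes (0%) at an adjusted p of at most 0.05. With terms for strain and passage, 4 libraries leave little to estimate error from, so 0 calls do not show an absence of change. At an unadjusted p under 0.05 there were 4 members, SLC6A12, SLC7A3 and SLC7A8 among them, or 12.9% beside 9.35% of all genes, each higher at P25 in both lines. DESeq2 called 2 of 27 members beside 1.33% of its genes, SLC6A12 among them with a log2 fold change of 1.10 (adjusted p = 0.0373). The edgeR fits with a library left out had no strain term. Without FD2M1 P25 the only P25 library was from LSD1, so passage and strain cannot be told apart there. Across the 31 members, 8 were higher at P25 in both lines, beside 29% of all genes, and 3 were lower, SLC6A4, SLC7A6 and SLC38A7, beside 29.6%.

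Several members, SLC3A2 and its light chains SLC7A5, SLC7A7 and SLC7A8 among them, were higher in LSD1 than in FD2M1. For the monoiPSCs, edgeR with passage as a covariate called 0 of 31 members and 0% of the 12252 genes. As for passage, this fit had little to estimate error from, so 0 calls do not show that the lines are alike. In the same fit 10 members, or 32.3%, had an unadjusted p under 0.05 beside 14.2% of all genes. DESeq2 called 6 of 28 members, SLC1A3, SLC3A2, SLC6A12, SLC7A5 and SLC7A8 among them, all higher in LSD1, beside 1.44% of its genes called higher. In DESeq2 the log2 difference was 1.09 for SLC3A2 (adjusted p = 0.00120) and 1.17 for SLC7A5 (adjusted p = 0.00197), and in edgeR, where neither was called, it was 1.08 ± 0.24 (adjusted p = 0.194) and 1.17 ± 0.30 (adjusted p = 0.225). The neoSFs were not used in these fits. There too the LSD1 level was 2.22 times that of FD2M1 for SLC3A2 and 2.04 times for SLC7A5, from 1 library each.

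Over the 3 pairs of an LSD1 and an FD2M1 library, which are the neoSFs, P15 and P25, 11 of the 32 tested members were higher in LSD1 each time, beside 16.1% of all tested genes. Among them were SLC1A3, SLC1A4, SLC3A2, SLC6A9, SLC6A12, SLC7A5, SLC7A7, SLC7A8, SLC38A6 and SLC38A9. The share was 34.4%. For 3 members was LSD1 at least 1.5 times higher in each pair with both levels above the floor, namely SLC3A2 at 2.22, 2.92 and 1.53 times, SLC7A7 at 1.84, 1.68 and 2.63 times and SLC7A8 at 2.34, 2.16 and 2.02 times. SLC6A12 also met this ratio, but on 0 and 1 count in neoSFs, which makes 4 members, or 12.5%, beside 1.19% of all tested genes. Lower in LSD1 in all 3 pairs were SLC6A4, SLC6A15 and SLC7A6, or 9.38% beside 19%. The pairs share strains and, for P15 and P25, lines, so they are not 3 separate tests. Markers of other cell types did not move together between the strains. DCT was at 15279 and 7858 in LSD1 monoiPSCs against 5608 and 4372 in FD2M1 monoiPSCs, and NES, a gene of neural progenitors and other dividing cells, was at 6455 and 10431 against 4960.1 and 4225, and in neoSFs at 24777 in LSD1 against 6143 in FD2M1. FABP7 went the other way, at 7748 and 9663 against 12579 and 12484. Of the 5 melanocyte markers 2 were higher and 1 lower in LSD1 monoiPSCs at both passages, and of the 6 neural progenitor markers 1 was higher and 4 were lower. The part of such cells in the strain differences of the transporters was not tested.

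**Figure D4:**
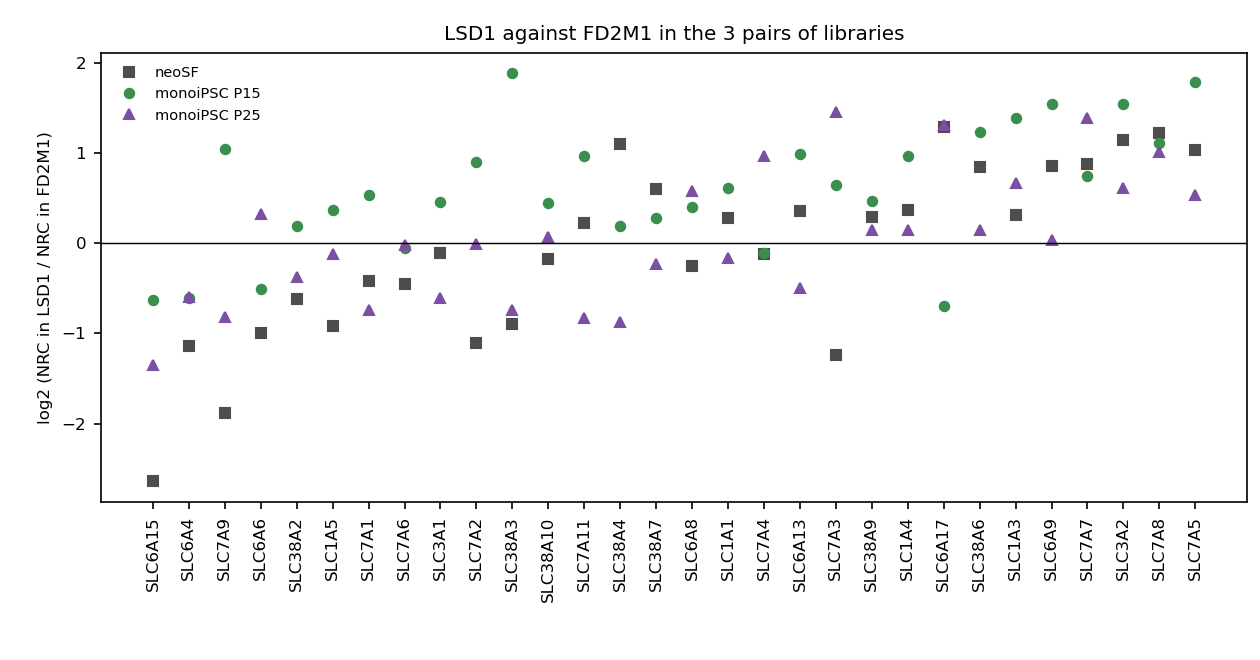
Log2 ratio of the NRC in LSD1 to that in FD2M1 (y axis) for 30 tested members (x axis, ordered by the sum of the 3 ratios) in neoSFs, monoiPSCs at P15 and monoiPSCs at P25. Each symbol is 1 pair of libraries, and SLC6A12 is left out as its FD2M1 neoSF level was 0. The 3 symbols of SLC7A8, at ratios of 2.34, 2.16 and 2.02, lie close together above 0, while those of SLC7A3 and SLC38A3 lie on both sides of it.

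The change from neoSFs to monoiPSCs was also compared between the strains, by the interaction of cell type and strain. Each strain had 1 neoSF library, so the error in this fit came only from the difference between passages. Spread between neoSF cultures of a strain is therefore not in its p-values. edgeR called 0 of 32 members and 0.0841% of the 13072 genes, and DESeq2 called 0 of 31 members and 2.44% of its genes. At an unadjusted p under 0.05 there were 3 members in edgeR, SLC1A5, SLC7A2 and SLC7A3, or 9.38% beside 9.13% of all genes. SLC7A2 in monoiPSCs was at 0.0512 of the neoSF level in FD2M1 and at 0.148 in LSD1. SLC7A3 was at 7.97 times the neoSF level in FD2M1 and at 42.1 times in LSD1. For SLC1A5 the same ratio was 1.05 in FD2M1 and 2.17 in LSD1. None of these differences passed the adjusted threshold (adjusted p = 0.410, 0.369 and 0.541 for SLC1A5, SLC7A2 and SLC7A3 in edgeR).

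Other genes of amino acid handling were described from 5 lists, which were also chosen with earlier results of these data known. Each list was read beside the 24.3% of all tested genes that were higher and the 21.6% that were lower. In the amino acid response list, the targets and regulators of ATF4, 4 of 20 tested genes rose and 4 fell. GPT2, an alanine aminotransferase, rose by a log2 fold change of 2.51 ± 0.24 (adjusted p = 0.000137) and PSPH, the last enzyme of serine synthesis, by 2.22 ± 0.44 (adjusted p = 0.00353). NUPR1, a stress-induced chromatin protein, had a log2 fold change of -3.49 ± 0.49 (adjusted p = 0.000722) and the secreted glycoprotein STC2 one of -1.76 ± 0.35 (adjusted p = 0.00370). Of the 23 genes listed, ASNS, DDIT3 and SHMT2 were not found under their symbols. Of the 20 tested genes, 12 were higher in LSD1 in all 3 pairs, or 60%, beside 16.1% of all tested genes. NUPR1 was 1.93, 3.30 and 1.85 times higher in LSD1 in neoSFs, P15 and P25, and STC2 1.23, 2.41 and 1.72 times.

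Of the genes for nutrient sensing upstream of MTORC1, 2 of 26 tested rose and 4 fell. LAMTOR2, a subunit of the lysosomal Ragulator, rose by 1.10 ± 0.20 (log2, adjusted p = 0.00230) and RHEB, the GTPase that activates MTORC1, by 1.07 ± 0.23 (adjusted p = 0.00471). SESN3, a sestrin that holds MTORC1 back, had a log2 fold change of -2.85 ± 0.16 (adjusted p = 1.86e-05), and RRAGC, a Rag GTPase, one of -1.63 ± 0.16 (adjusted p = 0.000141). Of the enzymes of glutamine and glutamate, 4 of 15 rose, led by GPT2 and the CTP synthase CTPS2 (log2 fold change 1.93 ± 0.17, adjusted p = 9.26e-05). The proline synthesis enzyme ALDH18A1 was the 1 that fell (log2 fold change -1.61 ± 0.28, adjusted p = 0.00207).

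In glutathione synthesis and cystine use, 1 of 13 tested genes rose and 1 fell. They were CHAC2, which breaks down glutathione (log2 fold change 1.58 ± 0.28, adjusted p = 0.00204), and NFE2L2, the transcription factor of the oxidative stress response (log2 fold change -2.15 ± 0.17, adjusted p = 6.60e-05). In this list 7 of 13 genes, or 53.8%, were higher in LSD1 in all 3 pairs, beside 16.1% of all tested genes. Most of these differences were small, as the ratios of the 7 genes ran from 1.02 to 1.37 apart from 2.19 for GGT7 at P15. The lowest adjusted p of the 7 between the monoiPSC lines was 0.334 in edgeR. The share of genes higher in LSD1 in all 3 pairs was 15.4% in the nutrient sensing list, 6.67% among the enzymes of glutamine and glutamate and 16.7% among the other transporters. Of other amino acid and peptide transporters, 3 of 12 tested rose and 3 fell. SLC17A6, the vesicular glutamate transporter VGLUT2, had no count in neoSFs and a mean NRC of 233 ± 118 (SD, n = 4) in monoiPSCs, and was at least 42.8-fold higher on TMM-scaled counts against 3 counts per neoSF library. SLC43A3 had 37.4 ± 8.31 in neoSFs (SD, n = 2) and 2496 ± 767 in monoiPSCs (SD, n = 4) (log2 fold change 6.16 ± 0.45, adjusted p = 4.49e-05). SLC43A2, the LAT4 carrier of branched-chain amino acids, had a log2 fold change of -1.95 ± 0.34 (adjusted p = 0.00187), and SLC25A38, a mitochondrial glycine carrier, one of -1.26 ± 0.27 (adjusted p = 0.00530).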

How the data were processed

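RNA of 2 neoSF and 4 monoiPSC libraries was sequenced. The authors aligned the reads to MonDom5 in StrandNGS, filtered them and counted them on RefSeq genes, and deposited estimated counts, of which 87.1% above 0 were fractional, and log2 values after DESeq normalization. Each log2 value is the log2 of the count times 1 factor per library, and NRC is that product. A product of 1 or less was set to an NRC of 0, so an NRC of 0 does not always mean no count. The 2 rows without a gene were left out.

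Counts were rounded and fitted in edgeR 4.0.16 (R 4.3.3, TMM, glmQLFit and glmQLFTest) for the 13072 genes that reached an NRC of 20 in every library of a cell type. No block was used. DESeq2 1.42.0, limma 3.58.1 on the deposited log2 values, RLE scaling, no filter, halved monoiPSC counts (in case both reads of a pair had been counted), strain as a block and the omission of each library were the alternatives. The code was tested on simulated data. Members and lists were chosen with earlier results of these data known. Of the 32 tested members, 1 is counted but not reported here. Every other tested member is named, with values in every library for DE members whose mean NRC reached 100 in either cell type, for SLC3A2 with its light chains, and for outlying members. Of each list, at most the 2 DE genes with the largest rise and the 2 with the largest fall are named. All 51 symbols matched RefSeq.

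Strain pairs each monoiPSC line with the neoSFs it came from. The log2 difference of LSD1 minus FD2M1 on TMM-scaled counts was taken for neoSFs, P15 and P25. Its correlation across 13072 genes was 0.0918 between neoSFs and P15, 0.00976 between neoSFs and P25 and 0.284 between P15 and P25. Intervals and floors cover counting error only. Sequences of these genes were not used here.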

Additional observations from a re-analysis of the deposited data

Results flagged for a closer look

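In the 4 monoiPSC libraries, a member stood apart when the gap between the highest or lowest library and its neighbour, divided by the whole range, was above Dixon's critical value for 4 samples. This was so for 2 of 36 values tested, which were 31 members and 5 family sums. Chance alone marks about 1 in 20 groups of 4 independent values. The libraries were 2 lines at 2 passages, and the sums hold the same members, so that rate is only a guide. SLC7A4 (ratio 0.903) was high in LSD1 P25, at an NRC of 150.4 against 76.6 to 83.7 in the other 3. SLC38A6 (ratio 0.837) was low in FD2M1 P15, at 133 against 299 to 332. Without LSD1 P25 the log2 fold change was -0.21 for SLC7A4, from 0.09. SLC38A6 remained DE without FD2M1 P15, and SLC7A4 remained not DE without LSD1 P25.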

How the results depend on the processing

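The number of DE members was 19 in the reported fit, 19 to 21 with RLE scaling, DESeq2, limma, halved counts or strain as a replicate block (19, with 11 higher and 8 lower), 24 of 50 without a filter, and 14 to 21 when a library was left out. The 14 were found without the LSD1 neoSFs, a share of 43.8% beside 43.4% of all genes. Among the single members, 185 of 192 values under other settings and 168 of 192 with a library left out kept their direction and their side of the threshold. The strain block changed the call of SLC6A6 and SLC6A15 alone among the members.

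Reversed signs were limited to members that were not DE. With limma the log2 fold change was -0.046 for SLC7A1 and -0.058 for SLC7A4. With a library left out it ranged from -0.29 to 0.87 for SLC3A2, -0.44 to 0.43 for SLC6A9, -0.11 to 0.29 for SLC7A1, -0.21 to 0.19 for SLC7A4 and -0.82 to 0.22 for SLC7A5. The median over all genes moved from 0.08 to 0.03 with RLE scaling, to -0.01 with limma and to 0.23 without a filter. Over the members it moved from 0.14 to 0.09, 0.02 and 0.99, and it was 0.07 to 0.29 with a library left out, the highest without the LSD1 neoSFs.

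For passage, DESeq2 called 2 members, and for strain it called 6. With a library left out, the edgeR fits of passage had no strain term and those of strain no passage term. A single library then stood on a side of the comparison, so passage and strain were mixed and these counts are not given. A fit of strain over all 6 libraries, and the interaction with each monoiPSC library left out, were added after the data had been seen and called 0 members, and 9 of 32 members had an unadjusted p under 0.05 for strain in the former beside 9.63% of all genes. The ratio of summed NRC, monoiPSC over neoSF, was 1.09 for SLC1, 1.06 for SLC3, 0.651 for SLC6, 0.895 for SLC7 and 0.313 for SLC38, and as CPM 1.67, 1.63, 1.00, 1.37 and 0.483. On TMM-scaled CPM values these ratios were 1.16, 1.135, 0.696, 0.955 and 0.335. The 3 scales differ in the factor given to each library, and the cause of the difference between the factors was not tested. SLC3A2 held 99.5% to 99.9% of the SLC3 sum and SLC7A5 51.4% to 84.9% of the SLC7 sum in each library, without correction for length. These ratios therefore mostly follow single genes in SLC3, SLC7 and SLC38, and not the direction of most members.

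With 2 neoSF libraries, single libraries decided several calls. Members that did not reach an NRC of 20 in every library of a cell type were not tested. At 3 counts a neoSF library reads an NRC of 4.75 to 5.85.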
